A study of Caenorhabditis elegans with 2 samples.

Results

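Fatty acid elongases and lipogenic enzymes of Caenorhabditis elegans were followed as a set of 10 genes, taken by gene symbol: the elongases elo-1, elo-2, elo-3, elo-5 and elo-6, the elongation-cycle reductase let-767, the initiating enzymes pod-2 and fasn-1, and the regulators sbp-1 and mdt-15. All 10 were found among the 17118 gene symbols that have a probe set of their own on the array, through 11 probe sets, of which fasn-1 has 2. The data were 2 Affymetrix arrays hybridised with biotin-labelled cRNA from 6 μg of total RNA of whole worms. The control array held wild-type N2 worms raised without nanotubes. The other held N2 worms that had grown with a-SWCNT (amide single-walled carbon nanotubes, hollow cylinders of carbon) at 500 μg/mL, starting as synchronised L1 larvae and lasting 48 hr at 22 °C. The labels give both samples as L4, the final larval stage, and the strain was kept at 13 °C on OP50 bacteria before the experiment. With 1 array per group, there are no replicates, no tests and no measure of variation between cultures.

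Worms make fatty acids by carboxylating acetyl-CoA to malonyl-CoA and building palmitate on fatty acid synthase. Elongases then lengthen palmitate, dietary fatty acids, polyunsaturated chains and branched chains, each enzyme with its own substrates, and reductases and a dehydratase complete each round. Transcription of many of these genes is driven by SBP-1, the worm counterpart of the sterol regulatory element-binding proteins, with MDT-15 as its Mediator partner, and the intestine is the main site of this synthesis.

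Signals of the a-SWCNT array are given after multiplication by 2.50, which brought the trimmed means of the arrays (209 for control, 83.3 for a-SWCNT) to the same level. Signals below a floor of 56.7 count as not measured, and a ratio against the floor is a bound. Of the 11 probe sets, 5 (those of elo-5, elo-6, let-767, pod-2 and sbp-1) carry the letter suffix of probe sets that can match more than 1 transcript. A signal was compared only with that of the same probe set on the other array, since probe sets differ in brightness for a given amount of RNA. Ratios are log2 of a-SWCNT over control, so that 1 is a 2-fold difference. Across all 9382 measured genes the median ratio was -0.02, and the central 90% of genes lay between -0.84 and 0.69.

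Transcripts of the elongase and lipogenic genes were mostly close to level between the arrays. None of their 11 probe sets was called 2-fold different (0 higher, 0 lower). Of all measured probe sets 5.78% were, 1.36% higher and 4.42% lower, so that a count of 0 in 11 is near that background. The value of elo-3 was a bound of -0.94 set by the floor, so a 2-fold difference of elo-3 could be neither called nor excluded. The median over the 10 genes was 0.02, with 5 genes above and 5 below 0, and 6 of the 10 lay within the central 50% of all genes (-0.33 to 0.26). The highest values were 0.55 for sbp-1 and 0.51 for elo-2, the lowest measured on both arrays was -0.37 for elo-6, and elo-3 was below the floor after a-SWCNT.

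**Figure D1:**
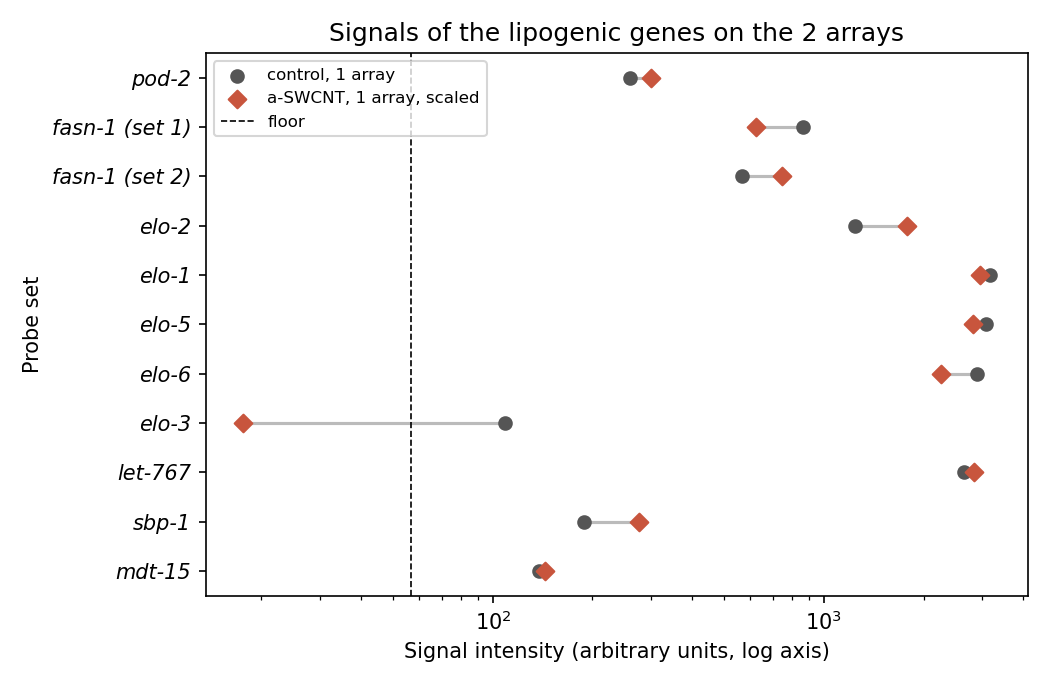
Signal intensity of each probe set (vertical axis) on a log axis in arbitrary units, with circles for the control array, diamonds for the scaled a-SWCNT array and a dashed line at the floor of 56.7. Apart from elo-3, all probe sets are above the floor on both arrays and have their symbols close together, while elo-3 runs from 109 in control to 17.6 after a-SWCNT, below the floor.

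The first committed step of synthesis was little different. The pod-2 signal (acetyl-CoA carboxylase) was 260 in control worms and 301 after a-SWCNT, a log2 ratio of 0.21. It was above 0 in 5 of 6 scalings of the arrays and at -0.05 with equal hybridisation controls, bacterial and phage transcripts that are added to every sample.

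The 2 probe sets of fasn-1, the fatty acid synthase gene, went opposite ways. One (174796_at) went from 864 in control worms to 625 after a-SWCNT, 1.38-fold lower, and the other (189768_at) had 566 and 748, 1.32-fold higher. Their log2 ratios of -0.47 and 0.40 differ by 0.87 and average to -0.03, so the data give fasn-1 no direction. Among 1370 genes with 2 probe sets measured on both arrays the median difference between them was 0.43, and 288 of these genes differed by at least as much as fasn-1. This spread within a gene is used here as a rough guide to measurement error. As a difference between 2 ratios it holds the error of both, and is not the error of 1 ratio. It includes differences between probe sets, among them those by probe set number set out after the gene lists, and no variation between cultures. Of the 10 genes of the set, 7 had ratios within 0.43 of 0. The central 50% of all genes (-0.33 to 0.26) also lay within 0.43 of 0. The full share of all genes within 0.43 was not computed, so the 7 are not read as a trait of the set.

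Elongases, the condensing enzymes that set which chain is lengthened, were lower in 4 of 5 cases, with small differences in all but elo-3. The exception was elo-2, whose enzyme lengthens palmitate, with 1246 in control worms and 1781 after a-SWCNT, 1.43-fold higher. That ratio of 0.51 was above 89.3% of all measured genes and stayed between 0.25 and 0.64 over the 6 scalings. The signal of elo-1, which acts in the synthesis of long polyunsaturated fatty acids, was 3179 in control worms and 2955 after a-SWCNT, a ratio of -0.11 that changed sign with equal 75th percentiles (0.02).

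The genes elo-5 and elo-6 encode the elongases of the monomethyl branched-chain fatty acids, which worms need for growth, and lie near each other on chromosome IV with 3 protein-coding genes between them. The signal of elo-5 was 3078 in control worms and 2831 after a-SWCNT (-0.12), again with a change of sign with equal 75th percentiles (0.01). That of elo-6 was 2909 in control worms and 2256 after a-SWCNT, 1.29-fold lower, and its ratio of -0.37 stayed below 0 in all 6 scalings (-0.63 to -0.24), but was -0.09 when ratios were centred by probe set number. The difference between these neighbours, like that between the probe sets of fasn-1, coincides with a difference in probe set number: certain numbers had low ratios across the array, as set out after the gene lists.

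The lowest of the set was elo-3, a further member of the elongase family, with 109 in control worms and 17.6 after a-SWCNT, where it was not measured. It was at least 1.93-fold lower, a bound of -0.94 set by the floor and the control signal. The ratio of its signals without a floor was -2.63, a value that rests on a signal under the median of all signals. Over the 6 scalings the bound ran from -1.08 with equal hybridisation controls, past 2-fold, to -0.84 after loess centring.

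The other elongases on the array gave 1 further ratio. The signal of elo-4 was 2528 in control worms and 2119 after a-SWCNT (-0.25, and below 0 in all 6 scalings). The probe sets of elo-7, next to elo-1 on chromosome IV with 0 protein-coding genes between them, and of elo-9 were below the floor on both arrays, at 52.0 and 12.5 for elo-7 and 39.5 and 36.9 for elo-9. With elo-4, 5 of 6 measured elongases were below 0, at a median of -0.19. The share of all measured genes below 0 was 4890 of 9382.

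**Figure D2:**
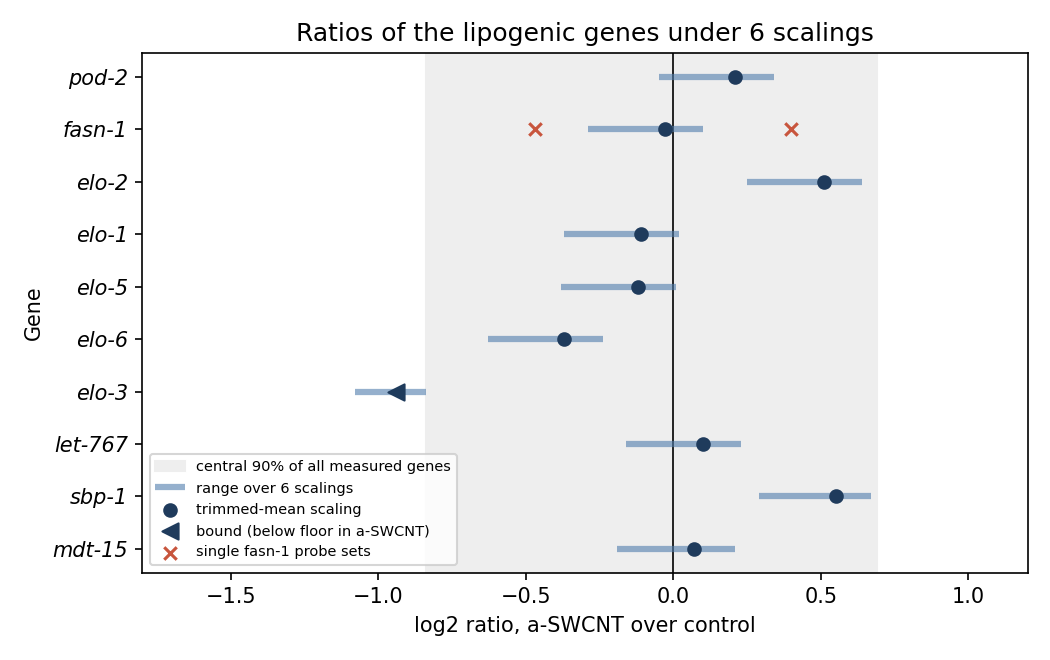
Log2 ratio of a-SWCNT over control (horizontal axis) for each of the 10 genes, with points for the scaling used, bars for the range over 6 scalings, crosses for the single probe sets of fasn-1 and a grey band for the central 90% of all measured genes. The bars of elo-2 and sbp-1 lie above 0, those of elo-6 and elo-3 below it, the others cross it, and elo-3, drawn as a bound, is left of the band.

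After condensation, the steps of the elongation cycle are catalysed by a ketoacyl-CoA reductase, a dehydratase and an enoyl-CoA reductase. The reductase gene let-767 had 2657 in control worms and 2850 after a-SWCNT, a ratio of 0.10 that was -0.16 with equal hybridisation controls and -0.04 after loess centring. Homologues of the later steps were both above 0 in all 6 scalings, with 2701 and 3444 for hpo-8, the dehydratase (0.35), and 1686 and 2178 for art-1, the enoyl-CoA reductase (0.37). Both differences are smaller than the median of 0.43 between probe sets of a gene, but art-1 has a low-ratio number and stood at 0.65 when centred by number. The let-767 relative stdh-1 had -0.23, while stdh-2, stdh-3 and stdh-4 were below the floor on both arrays.

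Of the regulators, sbp-1 had the highest ratio of the set, with 189 in control worms and 276 after a-SWCNT, 1.46-fold higher. Its ratio of 0.55 was above 90.6% of all measured genes and lay between 0.29 and 0.67 over the 6 scalings. The signal of mdt-15 was 138 in control worms and 144 after a-SWCNT (0.07), with a change of sign with equal hybridisation controls (-0.19). A further probe set, shared between mdt-15 and R12B2.6, was outside the rule and not measured on either array.

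The gene scp-1, the worm homologue of SCAP, which escorts sterol regulatory element-binding proteins to the Golgi for activation, was lower where sbp-1 was higher. Its probe sets had 170 in control worms and 83.6 after a-SWCNT (-1.03), and 141 and 69.7 (-1.01), so that its mean of -1.02 was one of the 2.86% of genes at least 2-fold lower. Over the 6 scalings the mean of scp-1 was between -1.28 and -0.89, short of 2-fold at its upper end, and the difference between sbp-1 and scp-1 between 1.53 and 1.57. Among the 11 measured genes on the list of lipid transcription regulators and AMP-activated kinase subunits, 5 were above and 6 below 0, at a median of -0.02. The other gene at least 2-fold lower was hlh-30, the homologue of the lysosome and autophagy regulator TFEB, with 250 in control worms and 73.1 after a-SWCNT in its brightest probe set (-1.78), a bound of -1.21 in another and no measured signal in the remaining one. Of the rest, nhr-80, a nuclear receptor that promotes desaturase expression, stood highest (94.5 in control, 139 after a-SWCNT, 0.56), followed by mxl-3 (0.21). The nuclear receptor gene nhr-66 had -0.36 from probe sets at -0.93 and 0.22. The receptor nhr-49, which works with MDT-15, had -0.24 from -0.52 and 0.04.

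Other Mediator subunits, the complex to which MDT-15 belongs, were spread around 0 as mdt-15 was. Of 19 measured genes 8 were above and 11 below 0, 0 were 2-fold different where 4.27% of all genes were, and the median was -0.10. The lowest of those measured on both arrays were cic-1 (-0.80) and mdt-10 (-0.74), and the highest mdt-19 (0.38) and mdt-22 (0.73).

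Genes that supply the synthesis and elongation of fatty acids showed no 2-fold difference in either direction by gene mean. Of all genes 4.27% did, so that none in lists of this size is near that share. Those for acetyl-CoA, malonyl-CoA and NADPH had 2 of 8 above 0 and a median of -0.17. The highest was acly-1, an ATP citrate lyase, with 198 in control worms and 238 after a-SWCNT in 1 probe set and 187 and 275 in the other (0.26 and 0.56), and gspd-1 followed at 0.00. The lowest were idh-1, a cytosolic NADP-dependent isocitrate dehydrogenase, whose probe sets disagreed at -1.11 and 0.07, and the malic enzyme gene men-1 (-0.37). Genes that supply or degrade branched-chain precursors had 5 of 9 above 0 and a median of 0.04. They ran from the aminotransferase gene bcat-1 (-0.39), with bckd-1A and acs-1 both at -0.30, to dbt-1 (0.37) and mccc-1 (0.41). Centred by number, bcat-1 was at -0.11, acs-1 at -0.17 and bckd-1A, then the lower, at -0.31. The acyl-CoA synthetase ACS-1 activates branched chains in the same pathway as ELO-5.

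Desaturases were lower in 5 of 7 cases at a median of -0.23, from fat-2 (-0.47) and fat-4 (-0.39) to fat-5 (0.20) and fat-3 (0.24). Of the 7 genes 0 were at 2-fold, where 4.27% of all genes were. Both fat-5 and fat-3 were below 0 with equal hybridisation controls.

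Downstream of fatty acid synthesis, dgat-2, a diacylglycerol acyltransferase of triglyceride synthesis, was 2.97-fold higher, with 263 in control worms and 783 after a-SWCNT. Its ratio of 1.57 was above 99.8% of probe sets measured on both arrays and between 1.31 and 1.70 over the 6 scalings. Its other probe set was not measured on either array. It was the one gene of 17 measured for glycerolipid acylation and storage that was at least 2-fold higher, where 1.42% of all genes were, and 0 were 2-fold lower. That list had 10 genes above and 7 below 0 at a median of 0.13, with acl-7 (0.62) next highest and acl-9 (-0.59) and the perilipin homologue plin-1 (-0.52) lowest among those measured on both arrays. Genes of the methionine cycle and of phosphatidylcholine synthesis, which in worms feeds back on SBP-1, had 4 of 13 above 0 and a median of -0.18. By gene mean 0 of them were at 2-fold, where 4.27% of all genes were. The lowest were the choline kinase gene cka-1 (-0.96, from -1.59 and -0.33) and sams-4 (-0.84, from -1.17 and -0.52). The highest were pcyt-1 (0.12) and ckb-2 (0.61), and sams-1, the S-adenosylmethionine synthetase linked to SBP-1 activity, had 0.09. Sphingolipid synthesis, which uses branched chains, had 5 of 12 above 0 and a median of -0.13. Of these 12 genes 0 were at 2-fold, where 4.27% of all genes were. Those measured on both arrays ran from cgt-1 (-0.40) and sms-1 (-0.32) to sms-3 (0.00) and sptl-1 (0.16). The lipolysis genes had -0.45 (lid-1, from -0.57 and -0.33), -0.19 (hosl-1, from -0.39 and 0.01) and -0.15 (atgl-1, from -0.91, 0.07 and 0.37). Centred by number, hosl-1 was at -0.06 and atgl-1 at 0.03.

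**Figure D3:**
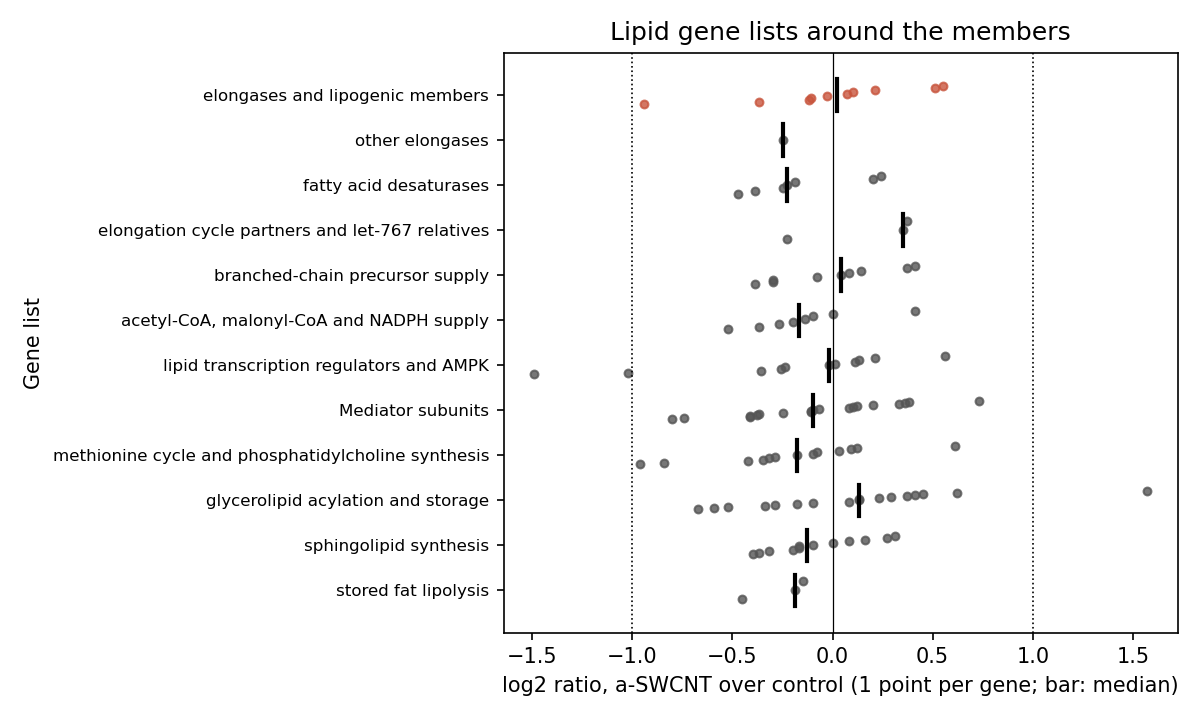
Log2 ratio of a-SWCNT over control (horizontal axis) for each measured gene of the elongase and lipogenic set and of the lists around it, 1 point per gene, with a bar at each list's median and dotted lines at 2-fold. Points of all lists straddle or lie near 0, and only dgat-2 (1.57), scp-1 (-1.02) and hlh-30 (-1.49) are past the dotted lines.

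The probe set of elo-6 and the lower one of fasn-1 have numbers in a range with low ratios. A number is part of the probe set's name, and positions on the array were not used. In bins of 500 consecutive probe set numbers, the longest run of bins with a median ratio below -0.1 covered the numbers 173000 to 175999. This range was picked for its low ratios, so its values are a description. Its measured probe sets had a median ratio of -0.28 over 2202 probe sets, against 0.01 over the others, and 10.2% of them were at least 2-fold lower against 3.13%. In 1070 genes with probe sets measured on both arrays both inside and outside this range, the inside value was the lower in 775 (72.4%), by a median of -0.38. Of the members' probe sets, that of elo-6 and the lower one of fasn-1 have such numbers. The difference of 0.87 between the fasn-1 probe sets was larger than that median. In 238 of the 1070 genes (22.2%) the inside value was at least as far below the outside value as in fasn-1. The ratio of elo-6 (-0.37) was near the median of that range, where 43.3% of probe sets lay at or below it, against 2059 of the other 9819. Without these probe sets fasn-1 stood at 0.40 and elo-6 had no value. In the values called centred by number, probe sets inside and outside the range were each centred at a median of 0. There elo-6 was at -0.09 and fasn-1 at 0.10. The difference between elo-2 and elo-6 was then 0.59 in place of 0.88. Among the genes of the lists, the lower probe sets of idh-1, cka-1, sams-4, nhr-66 and nhr-49 are also in the range. Centred, their means were -0.39, -0.83, -0.71, -0.22 and -0.10, and that of scp-1, with 1 probe set in the range, was -0.89. Outside the range, the bin starting at number 171500 also had a low median, -0.22 over 217 probe sets. It was centred together with all other probe sets outside the range. Among the lipid lists, the lower probe sets of bckd-1A (-0.39), men-1 (-0.45) and dbt-1 (0.02) and the lowest of plin-1 (-0.96) are in that bin. What the probe sets numbered 173000 to 175999 share was not tested.

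**Figure D4:**
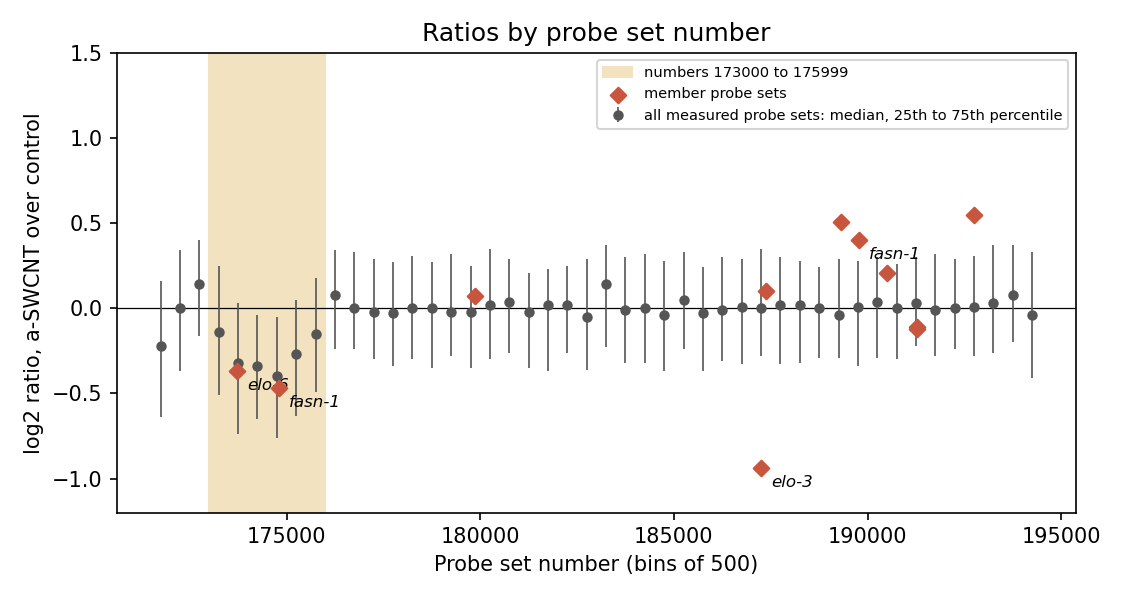
Log2 ratio of a-SWCNT over control (vertical axis) against probe set number in bins of 500, with grey points and bars for the median and the 25th to 75th percentile of all measured probe sets and diamonds for the members' probe sets. Medians within the shaded range from 173000 to 175999 are below 0, and elo-6 and the lower probe set of fasn-1 lie among them, while elo-3, outside it, is far below its neighbours.

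Markers of the tissues and stage were measured in both samples, and their part in the members' ratios was not tested. In whole worms, fewer cells of a type and less RNA per cell cannot be told apart. Of all 9382 measured genes 4492 were above 0. Of 9 intestine markers 6 were above 0, with a median of 0.23 (-0.04 with equal hybridisation controls). They ran from nhx-2 (-0.43) and ifb-2 (-0.10) to mtl-2 (0.64) and vha-6 (1.11). Their summed signals were 36206 in control worms and 52057 after a-SWCNT, most of the difference being in the bright probe sets of asp-1 (14644 and 21398) and mtl-2. The ratio of asp-1 (0.55) was above 0 in 5 of 6 scalings, with a lowest value of -0.05, and that of mtl-2 in all 6. Of 8 hypodermis markers 5 were above 0, with a median of 0.14 and sums of 27489 and 26869. They ran from che-14 (-0.91) and elt-3 (-0.74) to nhr-23 (0.93) and dpy-17 (1.85). Centred by number, che-14 was at -0.63, elt-3 at -0.61 and nhr-23 at 1.21.

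Germline markers were below 0 in 7 of 10, with a median of -0.53 and sums of 4237 and 3206, and gld-1 (-1.38) and mex-5 (-1.01, from -1.37 and -0.66) were at least 2-fold lower. Markers of the adult stage, vitellogenins and adult cuticle genes, were below 0 in 7 of 8, with a median of -0.73 and sums of 8268 and 4293, and bli-1 (-2.25), vit-2 (-1.63) and vit-6 (-1.44) were at least 2-fold lower. Body wall muscle markers were below 0 in 5 of 7 (median -0.40, sums 22402 and 17731), with unc-54 (-1.02) past 2-fold. Pharynx markers were below 0 in 3 of 4 (median -0.43, sums 1940 and 1593), with myo-2 (-1.30) past 2-fold and ceh-22 below the floor on both arrays. Neuron markers were below 0 in 7 of 8 (median -0.16, sums 6805 and 6966), from unc-64 (-0.89) to egl-3 (0.53). A sum is dominated by its brightest probe sets and is compared only with the same sum on the other array.

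Direction depends on the common level chosen for the arrays. The median of all genes was between -0.26 with equal hybridisation controls and 0.09 with equal 75th percentiles, and the median of the 10 genes moved with it, between -0.24 and 0.15. The difference between those medians stayed between -0.07 and 0.05 over the 6 scalings. Over all probe sets the 2-fold calls were 164 higher and 531 lower, but 64 and 1116 with equal hybridisation controls and 276 and 360 with equal 75th percentiles. The ratio of 3′ to 5′ control probe sets was lower after a-SWCNT for actin (1.13 in control, 0.899), the Gapdh control (0.779 and 0.687) and catalase (2.41 and 1.96), and higher for ubiquitin (14.3 and 23.1).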

How the data were processed

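The authors deposited 1 signal intensity per probe set and array, on a linear scale. MAS5 made them, per the submitters' processing notes, which give no version, scaling target or detection calls. From these values the a-SWCNT array was scaled to the control array by the mean of 22548 worm probe sets after removal of 2% at each end. Signals were raised to the pooled median (56.7) and log2 ratios taken. A gene's value was the mean over its single-gene probe sets measured on at least 1 array. Names came from the platform annotation, updated by identifier through a WBcel235 gene table (20701 of 20766 single-gene probe sets matched). Calls were ratios of at least 2-fold; no test was possible with 1 array per group, which also limits the precision.

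Named genes were the members, all other elo genes, and of each lipid list up to 2 highest and 2 lowest measured on both arrays plus every gene at 2-fold. Outside this rule, nhr-49 and sams-1 were named for their known roles, and marker genes for their ratios, after values were seen. Members and lists were chosen with earlier results of these data known. Alternatives were equal medians, equal 75th percentiles, quantile normalisation, loess centring (span 0.3), equal hybridisation controls (9 probe sets), values as deposited, other floors, thresholds and probe set choices; treatment of the low-ratio probe set numbers was chosen after seeing the data. The ratio computation was tested on simulated data. Python 3.11.15, numpy 2.4.6, pandas 2.3.3 and statsmodels 0.14.6 were used.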

Additional observations from a re-analysis of the deposited data

How the results depend on the processing

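Of 131 member values under alternatives other than the signals as deposited, 127 moved by no more than 0.43. Many of them could not move further. The choices of probe set cannot change the 9 genes with 1 probe set. The 6 scalings kept the median of all genes between -0.26 and 0.09, inside that tolerance. The count is therefore no measure of how firm the values are, and the scalings limit the list medians below in the same way. The exceptions were elo-3, at -2.63 with the floor at the 25th percentile and with no floor, and fasn-1, at -0.47 by its brightest probe set and 0.40 without the low-ratio probe set numbers. As deposited, unscaled by construction, the median over member genes was -1.31 and 8 member probe sets were 2-fold lower. One member probe set, elo-3 in each case, was lower by the threshold with equal hybridisation controls (1), the floor at the 25th percentile (1), no floor (1) and a threshold of 1.5-fold (1). Over all probe sets, higher calls numbered 64 with equal hybridisation controls, 4 as deposited, 276 with equal 75th percentiles, 741 and 89 with floors at the 25th and 75th percentiles, 2845 with no floor, 98 without letter-suffix probe sets, and 990 and 25 at 1.5-fold and 3-fold. Lower calls were 1116 with equal hybridisation controls, 8375 as deposited, 1011 and 204 with those floors, 2780 with no floor, 307 without the low-ratio probe set numbers, and 1709 and 91 at 1.5-fold and 3-fold. Of 270 list medians 251 moved by no more than 0.43, 17 of the others being as deposited; without letter-suffix probe sets the pharynx list was at 0.16 and the adult list at -1.24. At 1 array per group and dim signals, elo-3, elo-7 and elo-9 are limited by the floor. No paired analysis was possible because each group has 1 array.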
